A study of Mus musculus with 12 samples.

Results

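The adult globin genes Hba-a1, Hba-a2, Hbb-bs and Hbb-bt and the erythroid heme synthesis gene Alas2 were examined across the 3 diets of the series, 5 of the 54752 genes in the deposited count table. They were chosen by measured values: the symbols were picked because globin counts were lower both on dietary restriction (DR) and on the ketogenic diet (KD) than with ad libitum feeding (AL). The DR and KD differences from AL of these genes are therefore given as a description, with no test, and the difference between KD and DR was tested. RNA came from cerebellar cortex of 12 WT male mice aged 12 weeks of 1 strain, F1 hybrid C57BL6J/FVB, 4 on each diet. The methods describe dissection free of the deep nuclei and capture of poly(A) RNA for AL and DR mice only. AL mice had free access to food, and DR mice received a daily ration that was reduced in steps. AL and DR mice were killed at the start of the dark period, the DR mice without their last meal, and the RNA samples sequenced were selected on RNA quality from a larger number of animals. The labels call the last group ketogenic diet. Its composition, its duration, the hour of dissection and the choice of RNA samples are not given in the sources used here, and KD cannot be told apart from any of these. No step that removes blood from the tissue is described in those sources.

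Hemoglobin carries oxygen in red blood cells as a tetramer of alpha-like and beta-like chains, each with a heme group. Adult mice make the alpha chains from Hba-a1 and Hba-a2 and the beta chains from Hbb-bs and Hbb-bt, the adult beta genes of the haplotype that C57BL/6 carries. ALAS2 catalyzes the first step of heme synthesis in red cell precursors, whereas other cells use ALAS1. Mature mammalian red cells have lost their nucleus, and young ones, the reticulocytes, still hold globin mRNA. Globin mRNA in brain tissue can come from blood in the vessels, and globin transcripts have also been described in some neurons and glia. In bulk RNA, fewer cells of a type and less RNA per cell cannot be told apart.

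Positions are those of the deposited table, on GRCm38.p6. Hba-a1 (ENSMUSG00000069919.7) lies on chromosome 11, from 32283511 to 32284465 on the plus strand. Hba-a2 (ENSMUSG00000069917.7) follows at 32296489 to 32297298 on the same strand. Hbb-bs (ENSMUSG00000052305.6) lies on chromosome 7, from 103826534 to 103828096 on the minus strand, and Hbb-bt (ENSMUSG00000073940.3) at 103812524 to 103813996 on the same strand. Alas2 (ENSMUSG00000025270.13) lies on chromosome X, from 150547375 to 150570638 on the plus strand. The coding sequences of Hba-a1 and Hba-a2 in GENCODE M21 were identical at 428 of 429 bases and those of Hbb-bs and Hbb-bt at 443 of 444 bases. Of all stretches of 150 bases, the read length, in the Hba-a1 transcript, 48.4% occurred unchanged in the Hba-a2 transcript, and 58.7% of those of Hbb-bs occurred in Hbb-bt. How the counting treated reads that match both copies is not stated, so the split of reads within each pair is uncertain, and the 2 genes of a pair are not independent measurements. None of the exonic bases of the 4 globin genes overlapped another gene, and 15.5% of those of Alas2 overlapped Apex2 or Mir3620. The library kit does not mark strand, so reads from those shared bases cannot be told apart.

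The promoters are shown because the 5 genes varied together, as described further on. Each sequence is the 250 bases before the RefSeq start on GRCm38.p6, 5′ to 3′ on the strand of the gene, and all 5 genes had an entry. Capitals mark GATAAG (a form of the GATA factor motif), CACCC (the Krüppel-like factor motif), CCAAT and TATAA, on either strand and with overlaps allowed.
Hba-a2, chr11:32296242-32296491, plus strand: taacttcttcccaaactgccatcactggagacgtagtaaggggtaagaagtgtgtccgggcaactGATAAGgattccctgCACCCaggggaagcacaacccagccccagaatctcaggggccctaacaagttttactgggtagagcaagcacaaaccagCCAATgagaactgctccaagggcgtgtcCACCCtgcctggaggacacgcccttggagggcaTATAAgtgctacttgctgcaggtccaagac
Hbb-bs, chr7:103827929-103828178, minus strand: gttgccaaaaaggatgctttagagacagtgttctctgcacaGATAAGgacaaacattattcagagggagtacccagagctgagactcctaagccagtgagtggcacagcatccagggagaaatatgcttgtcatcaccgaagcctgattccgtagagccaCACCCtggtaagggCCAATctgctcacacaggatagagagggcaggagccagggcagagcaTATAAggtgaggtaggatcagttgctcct
Hbb-bt, chr7:103813924-103814173, minus strand: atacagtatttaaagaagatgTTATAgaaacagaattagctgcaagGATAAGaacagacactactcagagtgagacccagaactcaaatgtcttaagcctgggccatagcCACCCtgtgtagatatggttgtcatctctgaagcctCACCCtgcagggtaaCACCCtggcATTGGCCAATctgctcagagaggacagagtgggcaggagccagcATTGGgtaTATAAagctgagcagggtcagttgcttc
Alas2, chrX:150547167-150547416, plus strand: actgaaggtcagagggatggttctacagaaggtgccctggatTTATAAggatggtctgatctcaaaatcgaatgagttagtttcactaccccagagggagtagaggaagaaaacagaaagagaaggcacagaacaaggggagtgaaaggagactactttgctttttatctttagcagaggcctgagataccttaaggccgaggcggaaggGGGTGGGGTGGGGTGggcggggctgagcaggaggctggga

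The window of Hba-a1 (chr11:32283422-32283671) is not shown because it was identical to that of Hba-a2 at 247 of 253 aligned positions. The windows of Hbb-bs and Hbb-bt shared 185 of 261 aligned positions. GENCODE M21 gene models start upstream of the RefSeq start for some of these genes, and between 3 bases (Hba-a2) and 161 bases (Hba-a1) of a window lay inside an exon of such a model. All 4 globin windows held each of the 4 marked strings. The TATAA nearest the start began at -27 in Hba-a1, -30 in Hba-a2, -29 in Hbb-bs and -28 in Hbb-bt, counting the base before the start as -1. Alas2 held 3 CACCC in reverse orientation, the 1 nearest the start at -30 to -26, and TATAA far from the start, at -208 to -203 on either strand, and neither GATAAG nor CCAAT was found in its window. Among all 32851 RefSeq windows of the same length, GATAAG was in 6.55%, CACCC in 52.0%, CCAAT in 33.8% and TATAA in 22.8%. The shorter GATA was in 53.6% of all windows and in all 5 of these, and the longer TATAAA was in 12.4% of all windows and, of the 5, in Hbb-bt and Alas2. A match is a string of letters and says nothing of factor binding in these mice.

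Libraries held 31712084 to 40798644 counts, with medians of 37042341 on AL, 35448835 on DR and 37671175 on KD. No 2 libraries of a diet agreed within sampling noise (chi-square per gene 4.95 to 11.6 over 18 pairs). The defining markers of the labelled tissue, Gabra6 and Cbln1 of granule cells and Pcp2 and Calb1 of Purkinje cells, had 263 to 946 counts per 1000000 counts (CPM) in every library. DR replicate 2 stood apart in the globins. The fold changes of the 5 genes, the spread of the globins and the ratio Hba-a1/Hbb-bs are given with and without it. Correlations among the 5 genes are also given without DR replicates 2 and 4. The other ratio tests and the ranking of similar genes include it.

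The 4 globin genes made up 0.0174% to 0.0495% of the counts of a library. Both extremes were DR libraries. Per exonic length, in transcripts per 1000000 transcripts (TPM), the order of the AL means was Hba-a2 (572 ± 113 SD, n = 4), Hba-a1 (551 ± 96.9), Hbb-bs (388 ± 56.7), Hbb-bt (167 ± 27.9) and Alas2 (4.04 ± 0.993). Hba-a2 was above Hba-a1 in 11 of 12 libraries, by a TPM ratio of 1.04 ± 0.0230 (SD, n = 12). The order of this pair depends on the exonic lengths used, 812 bases for Hba-a1 and 667 for Hba-a2. In CPM, not divided by length, Hba-a1 was above Hba-a2 in every library (AL means 126 and 107 CPM). Every other step of the TPM order was the same in all 12 libraries.

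Of the alpha genes, Hba-a1 had 97.7, 139, 116 and 151 CPM in AL replicates 1 to 4. The DR libraries had 71.3, 187, 86.3 and 65.1 CPM, and the KD libraries 83.3, 96.7, 93.8 and 86.2 CPM. DR replicate 2 was thus the highest of the 12 libraries and the other 3 DR libraries were below the lowest AL library, while the 4 KD libraries lay close together and all below AL. Hba-a2 had 79.4, 116, 102 and 131 CPM on AL, 60.3, 159, 73.8 and 54.2 CPM on DR, and 70.6, 82.2, 81.4 and 75.4 CPM on KD. The same DR library was again the highest of all, and 2 of 4 KD libraries overlapped the lowest AL library.

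Of the beta genes, Hbb-bs had 69.7, 92.7, 75.0 and 97.6 CPM on AL, 45.6, 106, 53.8 and 39.6 CPM on DR, and 59.3, 62.9, 66.0 and 56.2 CPM on KD. All KD libraries and 3 of 4 DR libraries were below the lowest AL library, and DR replicate 2 was the highest of the 12. Hbb-bt, the less abundant beta gene, had 26.0, 35.6, 31.0 and 39.6 CPM on AL, 14.7, 38.2, 20.003 and 15.1 CPM on DR, and 22.2, 24.7, 26.5 and 21.6 CPM on KD. Here only AL replicate 4 was above DR replicate 2, and 1 of the KD libraries exceeded the lowest AL library.

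Alas2 was low, with 71, 124, 96 and 101 reads on AL, 75, 110, 89 and 53 reads on DR and 79, 78, 70 and 66 reads on KD. In CPM it ranged from 1.75 to 3.20 on AL, from 1.46 to 3.43 on DR and from 1.70 to 2.22 on KD. The 3 ranges overlapped, and DR replicate 2 was again the highest library.

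**Figure D1:**
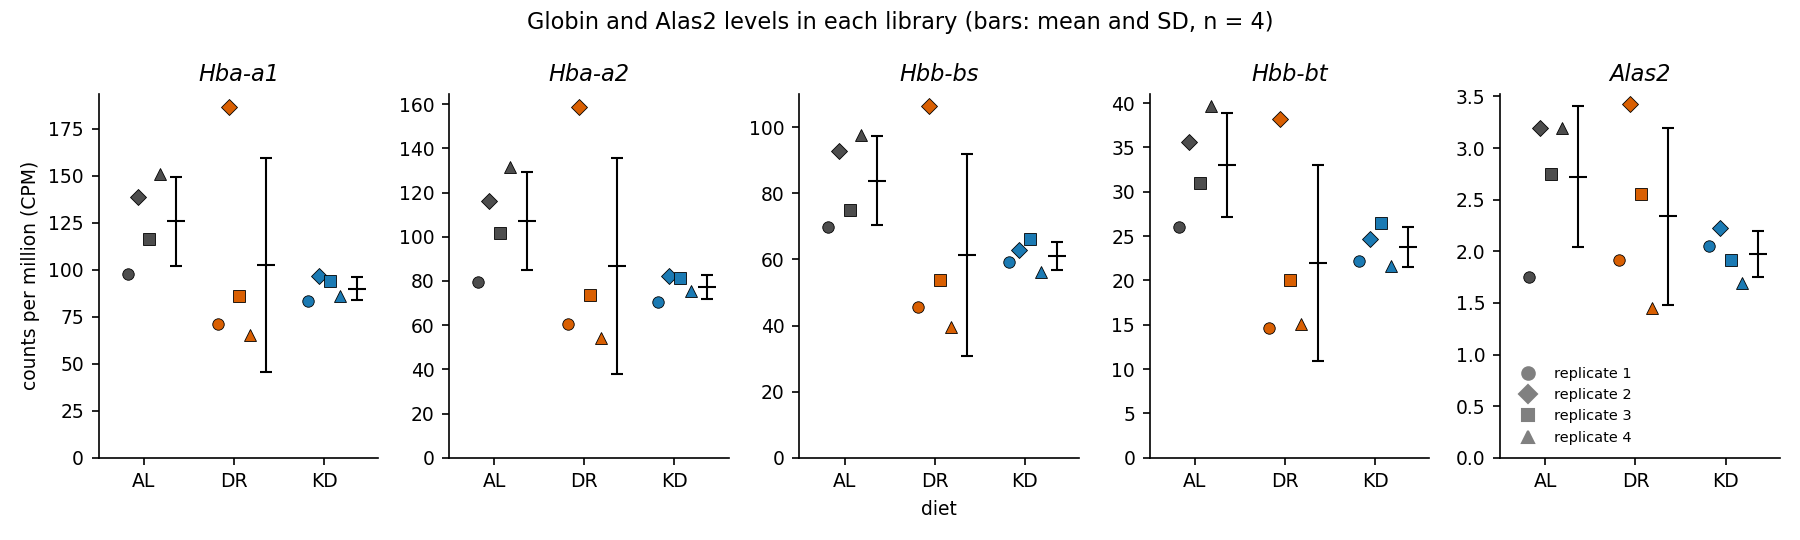
Level of each gene in CPM (linear axes from 0) in the 12 libraries by diet. Points are libraries, with a symbol for each replicate number, and the bars give the mean and SD of 4 libraries. Replicate numbers do not pair libraries across diets. DR replicate 2 (diamond) is the highest library for Hba-a1 (187 CPM), Hba-a2, Hbb-bs (106 CPM) and Alas2, the other DR globin values are below every AL value, and the KD libraries cluster.

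The spread between mice differed in size between diets. Over the 4 globins, the coefficient of variation was 16.1% to 20.7% on AL, 49.9% to 56.1% on DR and 6.98% to 9.54% on KD. That of Alas2 was 25.1%, 36.6% and 11.3%. Without DR replicate 2 the coefficient of the globins on DR was 14.6% to 17.8%. The difference in spread was not tested.

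In DR against AL, the fitted log2 fold changes were -0.30 ± 0.25 (SE) for Hba-a1, -0.31 ± 0.26 for Hba-a2, -0.45 ± 0.23 for Hbb-bs, -0.59 ± 0.23 for Hbb-bt and -0.22 ± 0.24 for Alas2. Across all 19052 genes tested the median was 0.0036. None of the 5 genes had every DR library below every AL library, a pattern that 5.64% of all tested genes showed. Since the rule used this contrast, nothing is read from that count. Without DR replicate 2 the values were -0.76 for Hba-a1, -0.77 for Hba-a2, -0.85 for Hbb-bs, -0.99 for Hbb-bt and -0.46 for Alas2. Each differed by more than 1.5 times from the value over all libraries. Leaving out DR replicate 4 instead gave -0.13 for Hba-a1, -0.13 for Hba-a2 -0.29 for Hbb-bs and -0.047 for Alas2, and all values stayed below 0 with any 1 library left out.

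In KD against AL, the log2 fold changes were nearly equal, at -0.48 ± 0.10 (SE) for Hba-a1, -0.47 ± 0.11 for Hba-a2, -0.45 ± 0.088 for Hbb-bs, -0.47 ± 0.10 for Hbb-bt and -0.46 ± 0.18 for Alas2. KD means were 0.716 to 0.729 times the AL means for the globins and 0.724 times for Alas2. The median over 19036 tested genes was 0.00021. Hba-a1 and Hbb-bs had every KD library below every AL library, and 1.55% of all tested genes did. This contrast was used by the rule too, and it shares its AL libraries with the comparison above. With each library left out in turn, the 5 values stayed between -0.63 and -0.35.

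**Figure D2:**
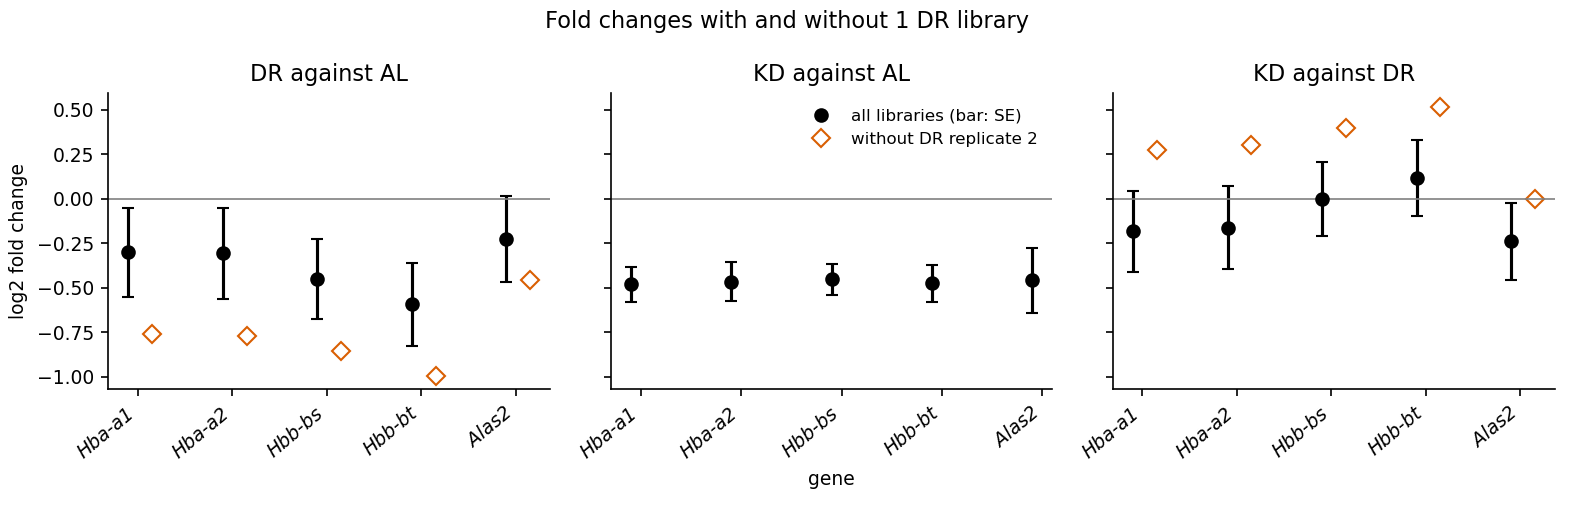
Log2 fold change of each gene in the 3 comparisons of diets. Filled circles are fits on all 8 libraries of a pair with their SE, and open diamonds are fits without DR replicate 2, a library singled out after its values were seen. In KD against AL the 5 values lie between -0.48 and -0.45, while the values of both comparisons with DR move when that library is left out.

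KD against DR was tested. The log2 fold changes were -0.18 ± 0.23 (SE) for Hba-a1, -0.16 ± 0.23 for Hba-a2, -0.0014 ± 0.21 for Hbb-bs, 0.12 ± 0.22 for Hbb-bt and -0.24 ± 0.22 for Alas2. No difference passed, with adjusted p-values of 0.734, 0.773, 0.999, 0.831 and 0.610 (quasi-likelihood test of edgeR, Benjamini-Hochberg over all 19087 genes). All unadjusted p-values of the 5 were 0.288 or higher. Of all tested genes, 2.43% were higher and 2.51% lower on KD than on DR (464 and 479 genes, against 376 and 617 when scaled by library size only). Without DR replicate 2 the globins were higher on KD, by log2 fold changes of 0.28 for Hba-a1, 0.30 for Hba-a2, 0.40 for Hbb-bs and 0.52 for Hbb-bt. Their adjusted p-values in that edgeR fit were 0.0612, 0.0533, 0.0124 and 0.00955, so Hbb-bs and Hbb-bt passed, in a fit whose missing library was known to be the highest. Of all 19380 genes tested in that fit, 397 were called higher on KD and 435 lower. Alas2 had -0.0026 in the same fit. The sign of the KD against DR value thus rested on DR replicate 2 for Hba-a1 and Hba-a2. Hbb-bs, near 0, also turned to 0.013 without KD replicate 1 and 0.037 without KD replicate 4, Hbb-bt turned to -0.036 without DR replicate 1 and -0.027 without DR replicate 4, and Alas2 stayed below 0 with any 1 library left out.

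Ratios between genes within a library do not depend on its depth. They were compared as TPM ratios with exact two-sided permutation tests on the log2 ratio over 70 divisions of 4 against 4 libraries, for which 0.0286 is the smallest p possible, in a family of 12 tests. The alpha over beta ratio Hba-a1/Hbb-bs was 1.33, 1.41, 1.46 and 1.46 on AL, 1.48, 1.66, 1.52 and 1.56 on DR, and 1.33, 1.45, 1.34 and 1.45 on KD. Every DR library was above every AL and every KD library, DR replicate 2 among them. The means were 1.42 ± 0.0647 (SD, n = 4) on AL, 1.55 ± 0.0772 on DR and 1.39 ± 0.0674 on KD. Both exact permutation tests against DR gave p = 0.0286 and an adjusted p of 0.171, so the difference failed the correction. A p at this floor passes the correction only if most of the 12 tests reach it. The adjusted p can therefore not decide on a difference in 1 ratio alone. Between KD and AL the exact permutation p was 0.714 (adjusted 0.857). Without DR replicate 2 the log2 difference in Hba-a1/Hbb-bs was 0.10 in DR against AL, from 0.13 over all libraries. In KD against DR it was -0.12, from -0.16. Summed reads of both alpha genes over those of both beta genes do not depend on the split within a pair. They gave 1.99 ± 0.0972 on AL, 2.23 ± 0.105 on DR and 1.98 ± 0.0981 on KD. The exact permutation p was again 0.0286 for DR against each of the other diets, without correction. Both p-values use the same DR libraries and partly the same reads as Hba-a1/Hbb-bs, so they are not independent of the tests above.

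The ratio Hbb-bt/Hbb-bs was 0.431 ± 0.0203 (SD, n = 4) on AL, 0.392 ± 0.0286 on DR and 0.424 ± 0.0126 on KD. DR differed from AL and from KD with an exact permutation p of 0.0571 each, adjusted 0.171. Hba-a2/Hba-a1 varied little, at 1.04 ± 0.0230 over the 12 libraries, and its smallest exact permutation p among diets was 0.200 (adjusted 0.343). Alas2/Hbb-bs was 0.0103 ± 0.00161 on AL, 0.0127 ± 0.00211 on DR and 0.0103 ± 0.00101 on KD, with a smallest exact permutation p of 0.114 (adjusted 0.274). None of the 12 adjusted values passed.

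**Figure D3:**
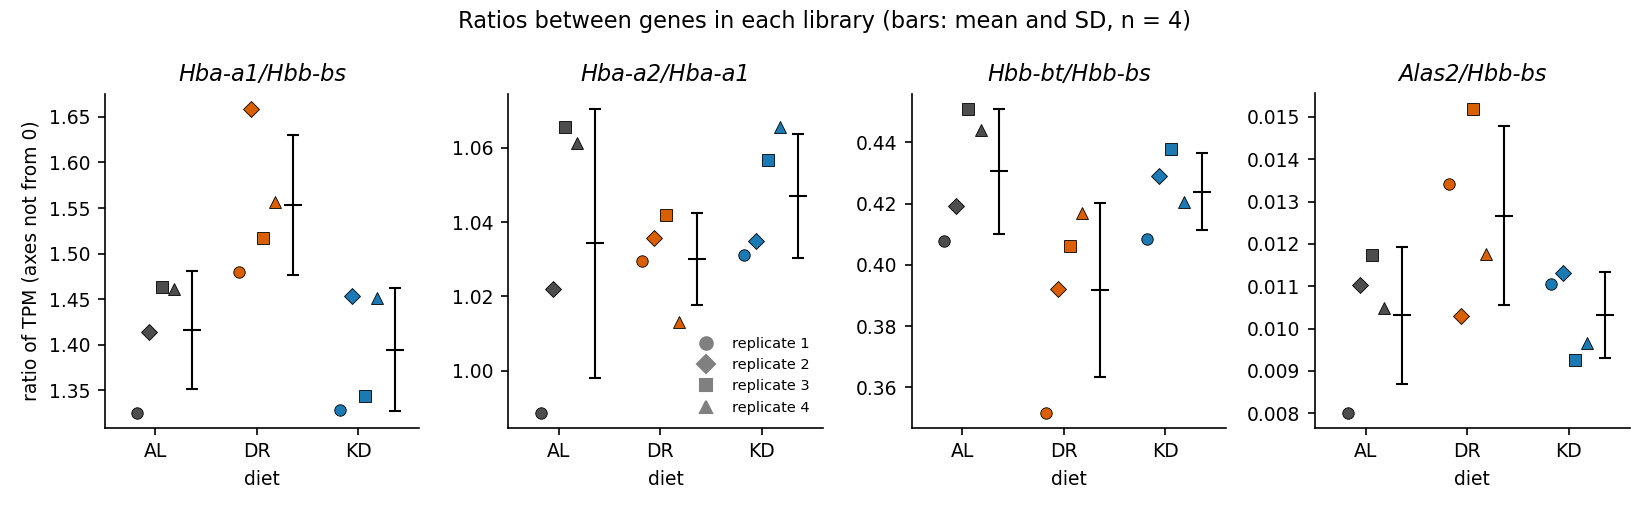
Ratios between genes, from values per length (TPM, axes not starting at 0), in the 12 libraries by diet. Points are libraries with a symbol for each replicate number, bars the mean and SD of 4. The 4 DR values of Hba-a1/Hbb-bs (1.48 to 1.66) lie above all AL and KD values (1.33 to 1.46), and the other ratios overlap between diets.

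With differences between diets removed, the 5 genes varied together from mouse to mouse. After the mean of each diet was removed from the log2 CPM, Pearson's r with Hbb-bs over 12 libraries was 0.991 for Hba-a1, 0.984 for Hba-a2 and 0.982 for Hbb-bt (permutation p = 0.000289 each, adjusted 0.000868 over 9 relations), and 0.856 for Alas2 (permutation p = 0.000796, adjusted 0.00179). Spearman's rho was 0.930, 0.923, 0.951 and 0.888 in the same order, with adjusted permutation p-values of 0.00765, 0.00765, 0.0013 and 0.00765. The 2 libraries farthest from the median were DR replicates 2 and 4. No r was computed within a single diet, and the DR libraries had the widest spread. Without the 2 libraries r was 0.956 for Hba-a1, 0.924 for Hba-a2, 0.957 for Hbb-bt and 0.836 for Alas2, with adjusted permutation p-values of 0.0182, 0.0182, 0.00781 and 0.0371. Alas2 shares no reads with the globins and lies on another chromosome. The values of Hbb-bs and Hbb-bt, like those of the alpha pair, may share reads.

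**Figure D4:**
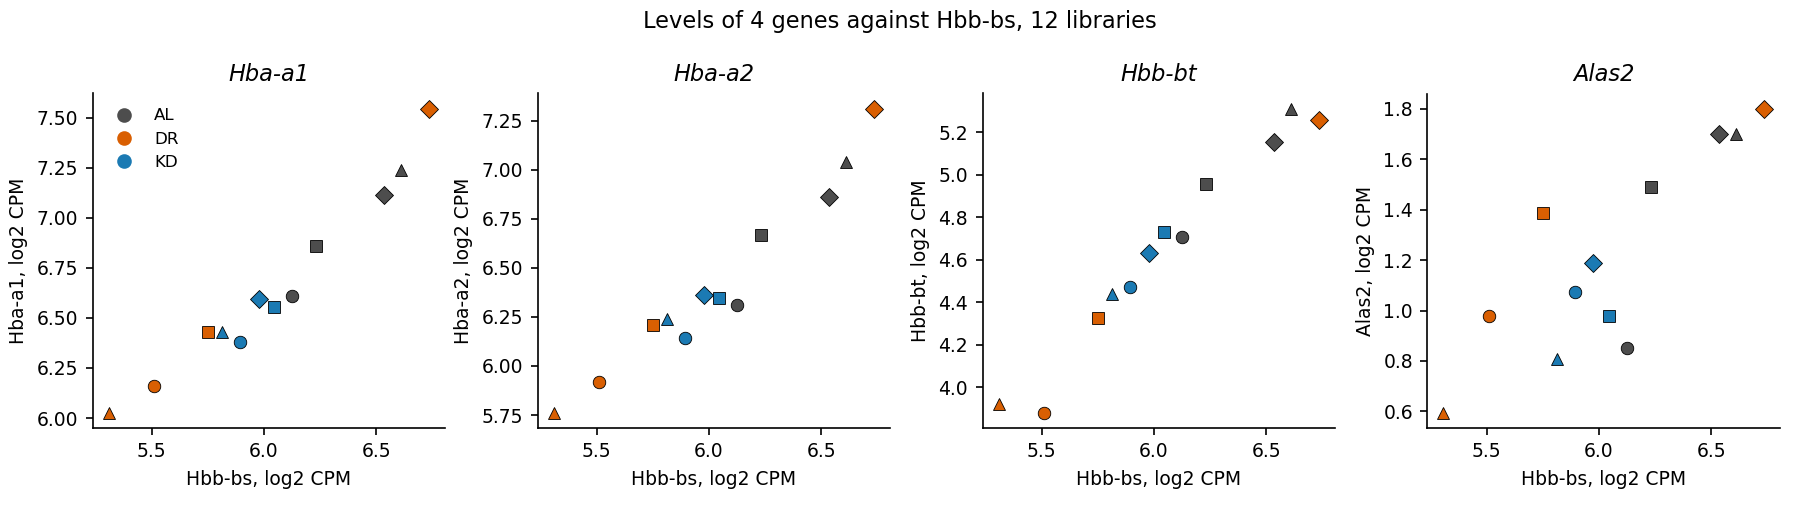
Log2 CPM of Hba-a1, Hba-a2, Hbb-bt and Alas2 against that of Hbb-bs in the 12 libraries. Points are libraries colored by diet, with a symbol for each replicate number. Over the 12 libraries r was 0.982 to 0.991 for the globins and 0.856 for Alas2 after diet means were removed. The KD libraries lie close together, and the DR libraries hold both the lowest and the highest Hbb-bs values.

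Markers of other blood and vessel cells were compared with Hbb-bs in the same way. The r of Hbb-bs with the mean log2 CPM of the tested markers was 0.297 for erythroid-restricted genes other than the globins (5 genes), 0.261 for leukocytes (3), -0.236 for platelets (5), 0.313 for endothelium (17) and -0.034 for choroid plexus and meninges (9), and the adjusted permutation p-values were 0.424 to 0.922. Spearman's rho was between -0.280 and 0.315, with adjusted permutation p-values of 0.458 to 0.840. Few markers of the first 3 lists were measurable, and the difference between these relations and those among the globins was not tested.

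Genes most like the globins were ranked by Pearson's r with the mean log2 CPM of the 4 globins, over 15477 genes of at least 1 CPM on average. Over the 12 libraries the globins, each a part of that mean, took ranks 1 to 4. Alas2, which is not a part of it, took rank 7 (r = 0.860). The most similar other genes were Sos2 (r = 0.875), Prkx (0.865), Rasal2 (0.849), Tnpo1 (0.840) and Shprh (0.839). Their range was narrow: Sos2 lay between 52.6 and 61.0 CPM in all 12 libraries. With diet means removed, Alas2 took rank 16 (r = 0.866), after Gm8319 (0.938), Cenpc1 (0.928), Sema6d (0.921), Clcn3 (0.900) and Snx13 (0.894) among others. None of these 10 genes was called by edgeR in any comparison of diets. Among 15477 genes and 12 libraries high values of r arise without relation, and no p is given. The ranking was not repeated without DR replicate 2.

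Most of the other globin genes had few or no reads. The embryonic genes Hba-x, Hbb-bh0, Hbb-bh1 and Hbb-bh2 had 0 reads in all 12 libraries, which allows up to 0.00686 CPM over the libraries together and covers counting error only. Embryonic Hbb-y had 8 reads, all in AL libraries. Cytoglobin (Cygb), a globin of many tissues, was the only other member of the family above 1 CPM, at 40.3 ± 5.1 CPM on AL, 42.1 ± 2.2 on DR and 37.6 ± 2.1 on KD, and neuroglobin (Ngb) had means of 0.535 CPM on AL, 0.445 on DR and 0.60 on KD. Of 11 other globin genes, 4 could be tested in DR against AL and 3 in each comparison with KD. The summed level of the 11 genes was 37.8 to 48.3 CPM on AL, 41.1 to 45.9 on DR, with DR replicate 2 the highest of these 4, and 37.6 to 42.3 on KD. None was called by edgeR or DESeq2, and 1 had an unadjusted p under 0.05 (Cygb, lower on KD than on DR, log2 fold change -0.17, adjusted p = 0.10 by edgeR).

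Genes of heme synthesis and mitochondrial iron import other than Alas2 were not called by edgeR. All 14 were tested and none was called by edgeR in any comparison. The background was 1.74% of genes lower and 1.32% higher on DR than on AL (331 and 252 genes, against 243 and 321 when scaled by library size only). In KD against AL, 0% of all genes were called lower and 0% higher, with 928 genes at an unadjusted p under 0.05 and 10 genes called by DESeq2. The median log2 fold change of the 14 genes was 0.028 on DR and 0.0017 on KD against AL. Alas1, the enzyme of the same first step in other cells, had 44.7 ± 0.98 CPM on AL, 43.6 ± 1.4 on DR and 43.9 ± 1.6 on KD (SD, n = 4). Fech, which inserts iron to form heme, had 30.1, 31.9 and 29.8 CPM. Uros, an enzyme of the middle of the pathway, was 20.5 CPM on AL and 24.4 on DR (log2 fold change 0.25, adjusted p = 0.058 by edgeR), and DESeq2 called it. In DR against AL 3 genes of the list had an unadjusted p under 0.05 (Cpox, Urod and Uros), in KD against DR 2 (Urod and Uros), and in KD against AL none.

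Transcripts restricted to red cells and their precursors were near 0. Of 15 listed markers 14 were in the table, and 8 of these had 3 counts per library or fewer on average. Kel, a blood group antigen of the red cell surface, had 1 read in all 12 libraries, Rhag and Car1 had 2 each, and the erythroid master regulator Gata1 had 6, all in 3 DR libraries. Slc4a1, the band 3 anion exchanger, was the highest, with 1.20 ± 0.32 CPM on AL, 1.38 ± 0.27 on DR and 1.08 ± 0.07 on KD (SD, n = 4). Klf1, which switches on adult beta globin, had 0.328, 0.411 and 0.550 CPM. The summed level of the list was 1.83 to 3.13 CPM on AL, 2.50 to 3.11 on DR and 2.57 to 3.09 on KD, and DR replicate 2, at 2.99 CPM, lay inside the range of the other DR libraries. Of the 3 markers tested against AL and 4 in KD against DR, none was called by edgeR or DESeq2, and 1 had an unadjusted p under 0.05 (Ermap, higher on KD than on DR).

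Red cell membrane genes that neurons also use were abundant and were not called by edgeR. Sptb, Ank1 and Epb41, which build the spectrin skeleton under the membrane, had 482 to 741 CPM as diet means. Of 17 genes in the list 10 were tested against AL and 11 in KD against DR, and edgeR called none. Unadjusted p-values under 0.05 were found for 3 genes, all in KD against DR (Ank1, Ermap and Tmod1), of which DESeq2 called Tmod1. Among erythroid regulators, 7 of 10 were tested and none was called by edgeR or DESeq2. Tal1 had 1.10 CPM on AL, 0.773 on DR and 1.24 on KD (adjusted p = 0.058 for KD against DR), and Lmo2 had 8.41, 6.74 and 7.96 CPM. Unadjusted p-values under 0.05 were found for Lmo2 in DR against AL and for Lmo2 and Tal1 in KD against DR. Epor, the erythropoietin receptor, had 5.61 to 5.82 CPM on all diets.

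Among red cell enzymes and reticulocyte genes 1 of 10 tested genes was called, Car2. This carbonic anhydrase is made by red cells and also by oligodendrocytes. It fell from 106 ± 9.5 CPM on AL to 77.0 ± 4.2 on DR (log2 fold change -0.46, adjusted p = 0.00116 by edgeR), while KD had 108 ± 4.4 CPM (log2 fold change 0.49 against DR, adjusted p = 5e-05). Both calls held with each library left out. The DR libraries were all below AL and KD, DR replicate 2 included, unlike the globins. Prdx2, Bpgm and Bnip3l, which are abundant in red cells, had 145 to 148, 36.2 to 38.6 and 102 to 104 CPM as diet means and were not called. Tfrc, the transferrin receptor that takes up iron, had 87.1 CPM on AL, 95.3 on DR and 96.5 on KD, with adjusted p-values of 0.18 and 0.69 against AL.

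Markers of other cells that blood and vessels hold were checked for movement with the globins. Leukocyte markers were low, with a summed level of 2.89 to 3.56 CPM on AL, 2.93 to 3.55 on DR and 2.83 to 6.91 on KD. The highest was KD replicate 1, which also had the highest Ttr, a choroid plexus gene, at 7.94 CPM, and whose globins lay inside the range of the other KD libraries or, for Hba-a1 and Hba-a2, just below it. Platelet markers summed to 5.62 to 7.66 CPM on AL, 4.80 to 5.92 on DR and 5.11 to 7.24 on KD. Of these Itgb3 fell on DR (2.39 ± 0.26 to 1.28 ± 0.17 CPM, adjusted p = 0.00942 by edgeR) and was higher on KD than on DR (log2 fold change 0.69, adjusted p = 0.0434), a call that held in 2 of 8 fits with a library left out. It was lost without DR replicate 1, 2 or 3 or KD replicate 1, 3 or 4. The platelet-specific Pf4 had 0.304, 0.368 and 0.315 CPM and was not called.

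Endothelial markers summed to 622 to 675 CPM on AL, 618 to 665 on DR and 617 to 642 on KD. Of 17 tested, Tie1 fell on DR (11.4 ± 0.53 to 8.33 ± 0.92 CPM, adjusted p = 0.0139 by edgeR), and Tie1 and Kdr, the VEGF receptor, were higher on KD than on DR (log2 fold changes 0.45 and 0.46, adjusted p = 0.0177 and 0.0168). The other 15 were not called by edgeR. Of these, DESeq2 called Emcn in DR against AL and Cldn5 and Slc2a1 in KD against DR, and it did not call Pecam1 or Cdh5. The Tie1 difference between KD and DR was lost without KD replicate 2 (adjusted p = 0.0553), and that of Kdr without KD replicate 3 or 4.

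Mural cell markers, like the globins, had lower levels on DR and KD than on AL. Their summed level was 179 to 186 CPM on AL, 157 to 175 on DR and 166 to 177 on KD, so that neither diet overlapped AL. Of 11 genes, 10 had lower fitted levels on DR and 10 on KD, with median log2 fold changes of -0.13 and -0.055, and edgeR called none. Of all tested genes, 49.0% had lower fitted levels on DR and 49.9% on KD. Both counts use the same AL libraries. The sum is weighted to the abundant genes Rgs5 and Vtn, and Vtn had 48.9, 44.3 and 46.8 CPM on AL, DR and KD. Rgs5, the most abundant of the 11 genes in these libraries, had 66.9 ± 4.7, 58.2 ± 4.3 and 59.0 ± 2.7 CPM. It had an unadjusted p under 0.05 against AL on both diets, and DESeq2 called it on DR. DR replicate 2, with the highest globin level, had the lowest mural sum (157 CPM). The part of these cells in the globin values was not tested.

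**Figure D5:**
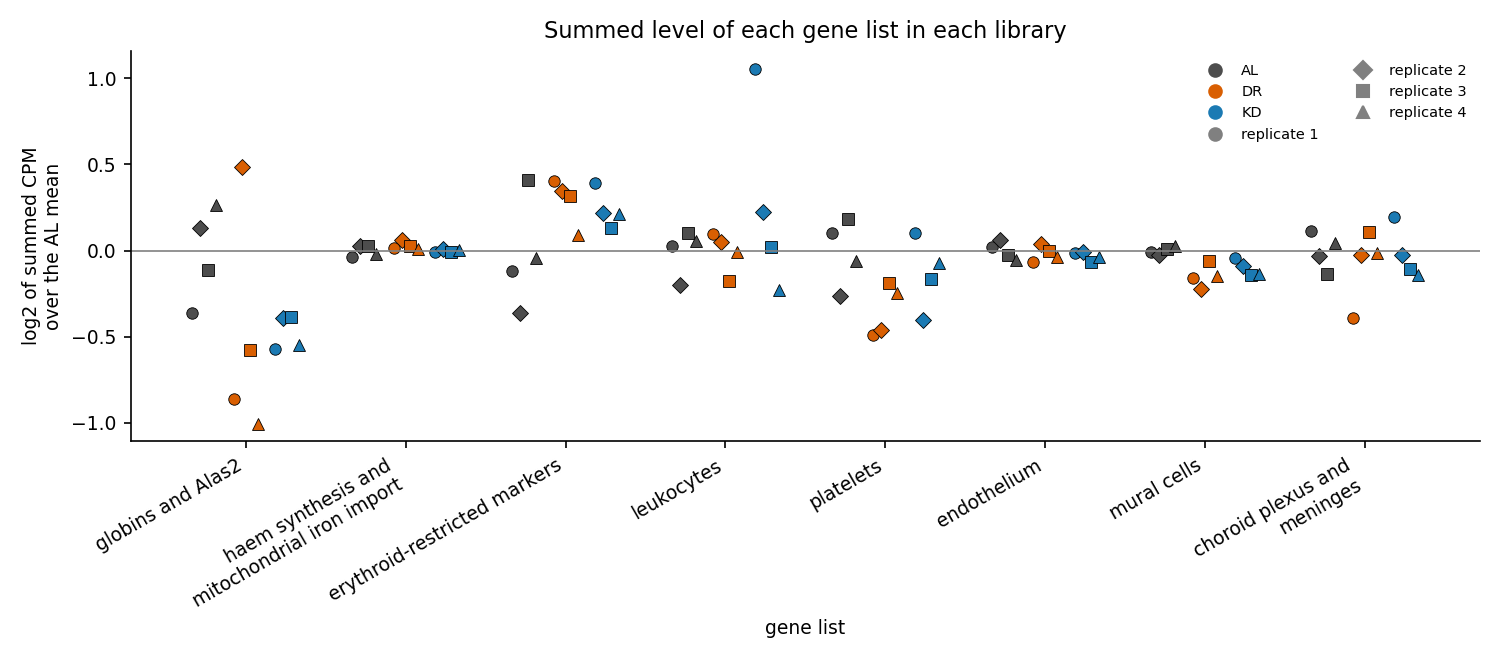
Summed CPM of 8 gene lists in each library, as log2 of the ratio to the AL mean of the same list. Points are libraries, colored by diet and with a symbol for each replicate number. The globins and Alas2 spread widely, with DR replicate 2 (diamond) highest, while erythroid-restricted markers on DR and KD lie above the AL mean, mural cells below it, and 1 KD library stands apart in the leukocyte markers (6.91 CPM).

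Choroid plexus and meningeal markers summed to 68.2 to 80.9 CPM on AL, 57.0 to 80.7 on DR and 67.9 to 85.6 on KD. Ttr was called in KD against DR (log2 fold change 2.16, adjusted p = 0.0332 by edgeR), with 0.371 to 7.94 CPM among the KD libraries. DESeq2 did not call it, and the edgeR call held in 1 of 8 fits with a library left out. Among genes that clear free hemoglobin and heme, Hmox1, which breaks down heme and is induced by it, had 2.45 ± 0.51, 2.31 ± 0.32 and 2.16 ± 0.39 CPM, and Cd163, the scavenger receptor for hemoglobin bound to haptoglobin, had 2.6, 3.13 and 2.75 CPM. Of 14 tested, Slc40a1, the iron exporter ferroportin, was higher on KD (5.09 ± 0.54 CPM) than on DR (3.58 ± 0.41, adjusted p = 0.0217 by edgeR), a call that held in 4 of 8 fits with a library left out. It was lost without DR replicate 2, DR replicate 3, KD replicate 1 or KD replicate 4.

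Of the genes that sense oxygen or respond to its lack, 15 were tested in each comparison and edgeR called 1. Car9, a carbonic anhydrase induced by hypoxia-inducible factors, rose from 9.58 ± 2.2 CPM on AL to 13.5 ± 1.3 on DR (log2 fold change 0.49, adjusted p = 0.0465 by edgeR) and was 8.40 ± 0.86 CPM on KD (log2 fold change -0.68 against DR, adjusted p = 0.000523). The first call was lost in 6 of 8 fits with a library left out and the second held in all 8. Vegfa, Pdk1, Egln3, Adm, Ankrd37 and Bnip3, other targets of these factors, were not called, and Epo had 4 reads. Slc2a1, the glucose transporter of the blood-brain barrier, had 163 ± 25, 157 ± 20 and 129 ± 14 CPM, and DESeq2 but not edgeR called it lower on KD than on DR (adjusted p = 0.053 by edgeR). Among the cerebellar cell markers Aqp4, the water channel of astrocyte endfeet on vessels, fell on DR from 196 ± 15 to 137 ± 12 CPM (adjusted p = 0.000706 by edgeR) and had 186 ± 18 CPM on KD (log2 fold change 0.45 against DR, adjusted p = 0.00131). In contrast with the globins, all 4 DR libraries of Aqp4 were below AL and KD.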

How the data were processed

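Cerebellar RNA of 12 mice was sequenced as paired reads, after poly(A) capture as the methods describe for AL and DR. According to the submitters' processing notes and the methods, the authors trimmed adaptors with Trimmomatic 0.39, aligned reads to GRCm38.p6 with STAR 2.7.0f and counted them per gene with featureCounts of Subread 1.6.4. The strand setting and the treatment of multi-mapping reads are not given in the sources used here. The deposited table holds raw counts per gene, not normalized, and no authors' test values were used. The titles name the columns, and diets come from the labels. Replicates are numbered in accession order, since the labels give no numbers, and p-values measure the spread between these samples. Symbols were matched by Ensembl identifier for 54723 of 54752 genes.

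The 5 genes and all gene lists were chosen with earlier results of these data known. For each comparison the 8 libraries of its 2 diets were fitted alone with edgeR 4.0.16 in R 4.3.3 (filterByExpr with a minimum count of 10 and a minimum total of 15, TMM scaling, quasi-likelihood test, adjusted p under 0.05). All 5 genes passed the filter in every pair. The fits were tested on simulated data. CPM and log2 CPM (prior count 2) used TMM over 12 libraries, and TPM used the exonic lengths in the table. The SD is over libraries. The SE of a log2 fold change is its absolute value over the square root of the edgeR F statistic, and includes the spread between mice. The floor for 0 reads covers counting error only, since the reads carry no molecular identifiers. Exact permutation tests used scipy 1.17.1, and within-diet correlations were tested by permuting libraries inside diets (13824 arrangements). Alternatives were other scalings, DESeq2 1.42.0, no filter, a joint fit, a prior count of 0.5 and leaving out each library. Genes named are the 5 members, list genes that were called or averaged at least 1 CPM, and the 10 genes most like the globins, 5 by each measure. Klf1, Kel and other scarce markers and embryonic globins below that level were named after their values were seen, as were DR replicate 2 and the motifs GATAAG and TATAA.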

Additional observations from a re-analysis of the deposited data

How the results depend on the processing

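All 5 genes kept lower fitted levels on DR and KD than on AL under library size scaling, RLE scaling, DESeq2, no filter on low counts, the joint fit of 12 libraries and with each library left out. In KD against DR, Hba-a1 (log2 fold change -0.18) was called without the filter (-0.18, adjusted p = 0.0146 by edgeR). The fold change was thus unchanged. With all libraries, its adjusted p in the other settings ran from 0.69 (edgeR, library size only) to 0.86 (DESeq2). Hbb-bs turned from -0.0014 to 0.0028 under RLE scaling and 0.00058 without the filter. With each library left out, KD against DR ran from -0.35 to 0.28 for Hba-a1, from -0.33 to 0.30 for Hba-a2, from -0.16 to 0.40 for Hbb-bs and from -0.036 to 0.52 for Hbb-bt, the highest value in each case without DR replicate 2. The number of genes called in DR against AL was 583, and 1014 with DESeq2, 1258 without the filter and 235 to 711 with a library left out. In KD against AL it was 0, and 10 with DESeq2, 118 without the filter and 0 to 6 with a library left out. In KD against DR it was 943, and 1503 without the filter and 467 to 946 with a library left out. List genes other than the members numbered 5 calls in DR against AL (10 with DESeq2, 12 without the filter, 9 in the joint fit), 0 in KD against AL (4 without the filter) and 8 in KD against DR (15 without the filter, 4 to 8 with a library left out). Ratios near no difference changed sign when a library was left out: Hba-a1/Hbb-bs in KD against AL ran from -0.054 to 0.00064 (log2), Hba-a2/Hba-a1 from -0.027 to 0.0092 in DR against AL and from -0.0033 to 0.033 in KD against AL, Hbb-bt/Hbb-bs in KD against AL from -0.047 to 0.0012 and Alas2/Hbb-bs in KD against AL from -0.11 to 0.078. With 3 against 4 libraries the exact test cannot reach an adjusted p under 0.05. Without the 2 libraries farthest from the median, r of Hbb-bs with the erythroid-restricted markers turned to -0.408 and with choroid plexus and meninges to 0.014. The cause of these changes was not tested. No paired analysis was possible because the labels give no replicate numbers that diets share. Depth limits Alas2 (53 to 124 reads) and the red cell markers far more than the globins.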

Other observations

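DR replicate 2, although the highest of the 12 libraries for 4 of the 5 genes, was not singled out by Dixon's test within the 4 DR libraries: its gap to the next library was 0.826 of the range for Hba-a1, 0.812 for Hba-a2, 0.787 for Hbb-bs and 0.773 for Hbb-bt, below the critical value in each case but close to it for Hba-a1. With 4 libraries this test has little power. None of 69 groups of 4 libraries tested in this way (levels of the 5 genes, their ratios and the summed levels of the gene lists) passed.

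In the same library the summed CPM of most gene lists lay inside the range of the remaining DR libraries. These were erythroid-restricted markers (2.99), leukocytes (3.43), platelets (4.90), and choroid plexus and meninges (73.4). They also included red cell membrane and skeleton (2237), red cell enzymes and reticulocyte genes (613), and erythroid regulators (143). Hemoglobin and heme clearance (1823) and oxygen sensing (979) lay inside as well. The sum was above the range for other globins (45.9 against 41.1 to 44.4) and endothelium (665 against 618 to 645). It was also above for heme synthesis and mitochondrial iron import (462 against 446 to 451). For mural cells (157 against 163 to 175) and cerebellar cortex identity genes (3573 against 3697 to 3832) it was below. None of these sums passed Dixon's test. Each sum is weighted to the abundant genes of its list. The sum of other globins is mostly Cygb, and that of hemoglobin and heme clearance mostly Lrp1. The endothelial sum is weighted to Bsg and Slc2a1. Such sums do not show whether most genes of a list moved with the globins in this library. The total count of this library, 31749160, was the lowest of the DR libraries.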
